A study of Arabidopsis thaliana with 6 samples.

Results

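Glutathione S-transferases (GSTs) were examined in seedlings of the cell adhesion mutant frb1-1 and of the wild type, on 6 Affymetrix ATH1 arrays. A gene was taken as a member if the annotation of the array gave it a probe set of its own and a symbol that, after any leading AT, is GST followed by the class letter F (phi), U (tau), L (lambda), T (theta) or Z (zeta) and a number. This rule found 14 members among 13356 genes with a probe set of their own, 11 of the tau class, 2 of the phi class and 1 of the lambda class, with none of the theta or zeta class. Each member had a single probe set, so that no choice between probe sets was needed. The family as listed by locus tag holds 49 genes, and the 35 others, among them all theta and zeta genes, were not analysed here, except for GSTL1, which the list of changed genes of the study names.

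The comparison was between 3 arrays of wild-type FRB1 seedlings and 3 arrays of frb1-1 seedlings, described in the labels as biological replicates; whether they came from separate cultures is not stated, so that p-values measure the spread between these arrays. All seedlings were of the Col-0 accession, taken whole at 10 days, and had been kept in the dark at 4 °C for 4 days and then grown at 21 °C on medium of 0.5 MS strength, with no further treatment. The labels call the mutant seedlings frb1 mutant, and the methods give the allele as frb1-1. The frb1-1 allele carries a T-DNA upstream of FRB1 (At5g01100), which encodes a Golgi protein, and reduces its transcript without abolishing it. It is a single insertion line, so that loss of FRB1 and any other difference carried by that line cannot be told apart in these arrays.

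GSTs join the tripeptide glutathione to electrophilic molecules such as herbicides, products of lipid oxidation and some secondary metabolites, and the conjugates are then moved into the vacuole. The tau and phi classes are the large classes of plants, and many of their genes are known to respond to wounding, pathogens, hormones and foreign chemicals. Lambda enzymes have a cysteine at the active site and carry out glutathione-dependent reductions, for instance of oxidized flavonols, rather than conjugation. In whole seedlings a lower signal could come from fewer cells that express a gene or from less RNA per cell, and these cannot be told apart here.

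The values are linear MAS 5.0 signals from the authors, 1 for each probe set, scaled to a trimmed mean of 500 on every array. Means are given ± SD. The median signal of an array ran from 153 (wild-type replicate 3) to 199 (wild-type replicate 1), and arrays correlated from r = 0.918 to 0.972 within a genotype and from 0.920 to 0.962 between genotypes. Probe sets whose log2 signals averaged 6 or more (64 as a signal) were tested with limma, and p was adjusted over all 15218 of them (Benjamini-Hochberg), with a threshold of 0.05. RCA, the Rubisco activase of green tissue, was bright on every array, with signals from 16255 to 31295. It had a log2 difference (frb1-1 minus wild type) of -0.41 (standard error 0.20, adjusted p = 0.889), and what part green tissue content has in the results below was not tested. The other green tissue markers and all 7 root markers listed have no probe set of their own in the annotation, nor does FRB1, so that the root part and the mutant were not checked with their own genes.

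No GST member was higher or lower in frb1-1 seedlings at the threshold. Of the 14 members, 12 had enough signal to be tested, and 0 of these 12 were called by limma in either direction (smallest adjusted p = 0.489, and 2 with an unadjusted p under 0.05). Among all tested probe sets 0.276% were called higher and 0.092% lower, and 5.96% had an unadjusted p under 0.05, so that few calls would be found among 12 genes at those rates. By the ratio of mean signals, 0 of 12 members differed at least 2-fold, where 1.18% of all tested probe sets were higher and 0.48% lower by that much.

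The members lay on both sides of no difference. Of the 12, 7 had a positive and 5 a negative log2 difference (frb1-1 minus wild type), where 51.3% of all tested probe sets were positive. Their median log2 difference was 0.08, beside 0.01 for all tested probe sets, and the values ran from -0.71 for GSTU20 to 0.73 for GSTL3. By class the median was 0.08 over 9 tau genes and -0.22 over 2 phi genes, and the only lambda gene had 0.73. With each array left out in turn the median of all members was -0.016 to 0.15, that of the tau genes -0.079 (without wild-type replicate 1) to 0.26 (without wild-type replicate 2) and that of the phi genes -0.48 (without wild-type replicate 2) to -0.051 (without wild-type replicate 3), so that no direction is read from them. Without regard to sign, the median size of the difference was 0.39 on the log2 scale for the members and 0.19 for all tested probe sets. Within a genotype the members had a median SD of 0.34 on the log2 scale, and all tested probe sets had 0.33.

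**Figure D1:**
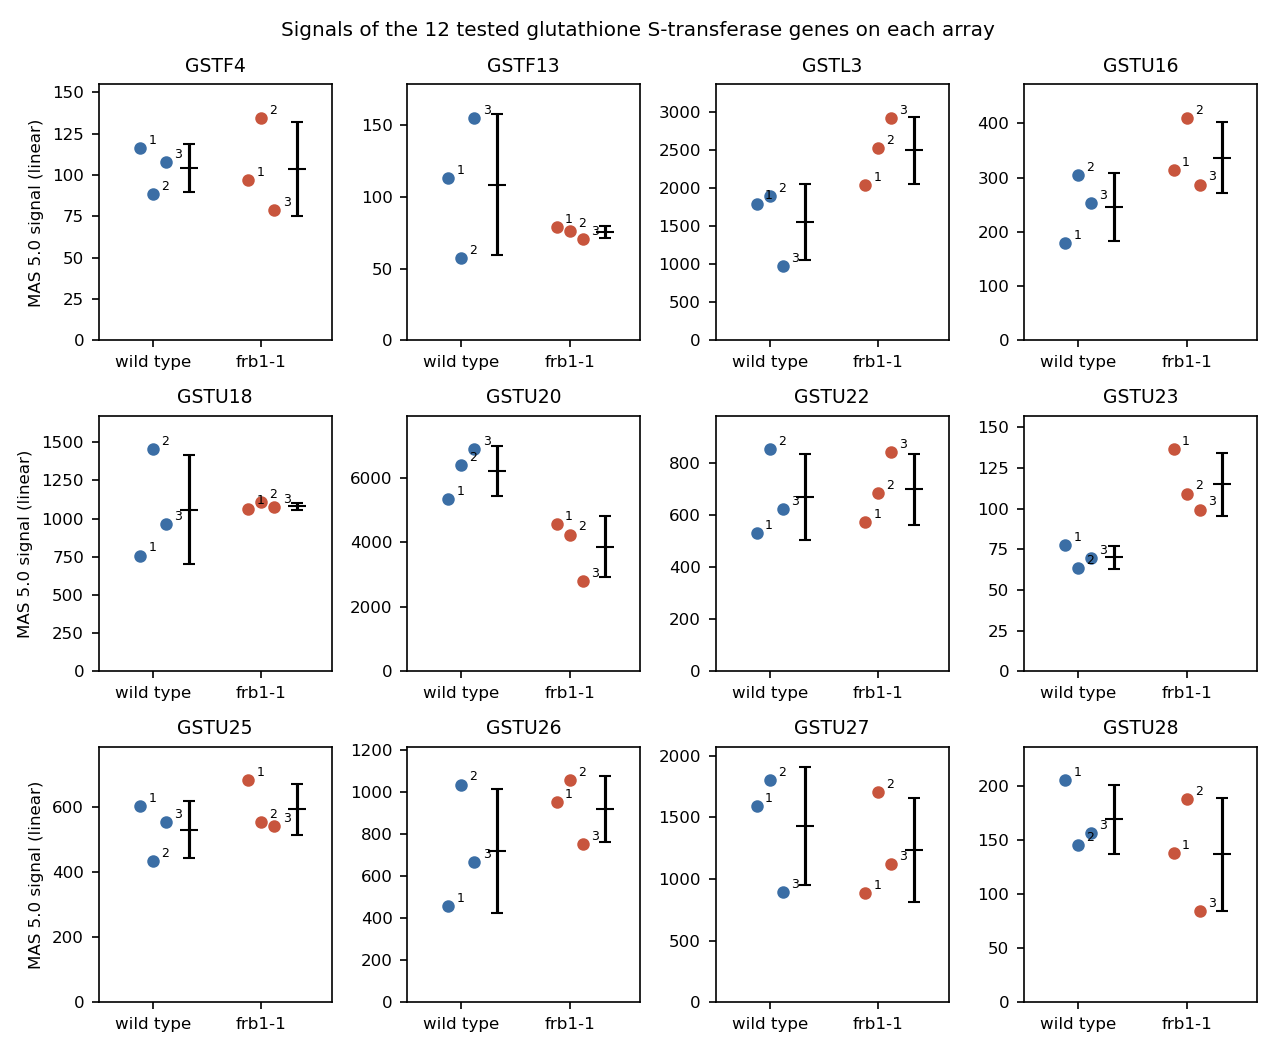
Signals of the 12 tested members on each array, on a linear scale that starts at 0 in every panel. Points are arrays, numbered by replicate, and the black mark and bar at the right of each group give the mean and SD of 3 arrays; only in GSTU20, GSTU23 and GSTL3 do the genotypes not overlap.

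In 9 of the 12 tested members the arrays of the genotypes overlapped. In 2 members all frb1-1 arrays were above all wild-type arrays (GSTU23 and GSTL3), as in 6.26% of all tested probe sets, and in 1 member all were below (GSTU20), as in 4.65%. For a single gene the smallest two-sided p of an exact permutation test of 3 arrays against 3 is 0.10, so that arrays that do not overlap can give no smaller value.

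GSTU20 (At1g78370) is a tau enzyme known to bind the jasmonate-conjugating enzyme FIN219/JAR1 in far-red light signalling. Its signal was 5346, 6383 and 6893 on the wild-type arrays and 4575, 4236 and 2788 on the frb1-1 arrays. Every frb1-1 array was thus below every wild-type array, and replicate 3 of the mutant was the lowest. Wild-type seedlings averaged 6208 ± 788 and mutant seedlings 3866 ± 949 (SD, n = 3 each), a ratio of wild type to mutant of 1.61. The log2 difference was -0.71 (standard error 0.22, 95% interval -1.20 to -0.22), with an unadjusted p of 0.00884 and an adjusted p of 0.489 from limma. A smaller p was found for 274 other probe sets of the 15218. The difference was between -0.84 and -0.49 when any single array was left out, the smaller size without frb1-1 replicate 3, and did not pass the threshold in any of 16 alternatives (adjusted p from 0.207 to 0.807).

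GSTU20 stands in a row of tau genes on chromosome 1, next to GSTU21, GSTU22 and GSTU23 with no other protein-coding gene between them in the TAIR10.1 annotation. GSTU23 (At1g78320) had a signal of 77.4, 63.2 and 69.8 on the wild-type arrays and of 137, 109 and 99.4 on the frb1-1 arrays. It was higher on every mutant array, though both groups lie close to the minimum signal of 64. The means were 70.1 ± 7.09 and 115 ± 19.3 (SD, n = 3 each), a ratio of mutant to wild type of 1.64, with a log2 difference of 0.71 (95% interval -0.14 to 1.55, standard error 0.38; limma adjusted p = 0.994). The standard error is large beside the spread of its own arrays because the fit draws the variance of each probe set towards that of others of the same brightness.

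GSTU22 (At1g78340), between these genes, had signals of 531, 853 and 622 in the wild type and 571, 683 and 841 in frb1-1. The mutant arrays fell within the range of the wild type, and the log2 difference was 0.07 (95% interval -0.47 to 0.62). GSTU21 (At1g78360) was at 2.93 to 38.0 on all 6 arrays, below the minimum, and was not tested.

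Within this row, the difference of GSTU23 exceeded that of GSTU20 by 1.41 on the log2 scale. In the ratio of these genes every mutant array was above every wild-type array. That follows from the arrays of each gene alone and adds nothing to them. For 4 pairs of tau genes, direct neighbours or members of the same row, the genotype differences were compared by an exact two-sided permutation test over the arrays. The pair of GSTU20 and GSTU23 gave an exact p of 0.10, the smallest value possible, or 0.267 after Benjamini-Hochberg adjustment over the 4 pairs. The exact p was fixed in advance, since the arrays of each gene alone did not overlap, in opposite directions. GSTU20 and GSTU22 differed by 0.78 (exact p = 0.20, adjusted 0.267), and GSTU22 and GSTU23 by 0.63 (exact p = 0.20, adjusted 0.267). With 3 arrays against 3 this test cannot reach the threshold, so that these values show neither that the genes responded alike nor that they differed.

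GSTU25 (At1g17180) and GSTU26 (At1g17190) form another pair of neighbours on chromosome 1. GSTU25, known for conjugating the explosive TNT, had signals of 603, 433 and 551 in the wild type and 682, 553 and 541 in frb1-1. GSTU26 had signals of 456, 1034 and 665 in the wild type and 950, 1056 and 749 in frb1-1. In both genes the groups overlapped, and the spread between arrays of the wild type was wider for GSTU26, where replicate 1 was the lowest. The log2 differences were 0.17 (95% interval -0.33 to 0.66) for GSTU25 and 0.42 (95% interval -0.22 to 1.06) for GSTU26, and they differed from each other by 0.25 (exact permutation test, p = 0.70, adjusted 0.70 over the 4 pairs).

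Of the other tau genes, GSTU16 (At1g59700) was the one with the next highest log2 difference, 0.47 (95% interval -0.12 to 1.07; limma adjusted p = 0.996). Its signals were 179, 304 and 254 in the wild type and 314, 410 and 287 in frb1-1, with overlap of the genotypes only between wild-type replicate 2 and mutant replicate 3. GSTU15 (At1g59670), which lies close to GSTU16 with 3 protein-coding genes between them, was at 8.44 to 46.3 on all arrays and was not tested. No fold is given for GSTU15 or GSTU21, since both genotypes lie below the minimum signal.

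GSTU18 (At1g10360) had signals of 758, 1457 and 964 in the wild type and of 1066, 1108 and 1073 in frb1-1. The mutant arrays fell within the range of the wild type, and the log2 difference was 0.08 (95% interval -0.47 to 0.63). GSTU27 (At3g43800) had signals of 1589, 1804 and 892 in the wild type and 885, 1702 and 1119 in frb1-1. Each genotype spanned nearly the same range, with wild-type replicate 3 about as low as mutant replicate 1, and the log2 difference was -0.20 (95% interval -0.88 to 0.48). GSTU28 (At1g53680) had signals of 205, 145 and 156 in the wild type and 138, 188 and 84.0 in frb1-1, which overlapped, with a log2 difference of -0.37 (95% interval -1.14 to 0.41).

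Both phi genes measured were dim, and in both the arrays of the genotypes overlapped. GSTF4 (At1g02950) had signals of 116, 88.4 and 108 in the wild type and 97.1, 135 and 78.7 in frb1-1. The mutant arrays lay on both sides of those of the wild type, with a log2 difference of -0.04 (95% interval -0.86 to 0.78). GSTF13 (At3g62760) had signals of 113, 57.2 and 155 in the wild type and 79.0, 76.3 and 71.0 in frb1-1. Here the wild-type arrays were the more scattered, from below to above all mutant arrays, and the log2 difference was -0.41 (95% interval -1.41 to 0.59). Wild-type replicate 2 of GSTF13 lay under the minimum of 64, which the mean over all arrays passed.

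GSTL3 (At5g02790), the lambda member, had the highest log2 difference of the 12 tested members. Its signal was 1797, 1891 and 977 on the wild-type arrays and 2037, 2527 and 2921 on the frb1-1 arrays. All mutant arrays were above all wild-type arrays, and wild-type replicate 3 stood well below the other wild-type arrays. The means were 1555 ± 503 and 2495 ± 443 (SD, n = 3 each), a ratio of mutant to wild type of 1.60, with a log2 difference of 0.73 (standard error 0.27, 95% interval 0.13 to 1.32, unadjusted p = 0.0211, adjusted p = 0.676 from limma). Without wild-type replicate 3 the difference was 0.42 (adjusted p = 0.712), and without any other single array it was 0.61 to 0.90. Over 16 alternatives the adjusted p ran from 0.329 to 0.999. Wild-type replicate 3 is also the array with the lowest median signal. The log2 difference of GSTL3 was 0.70 with quantile normalization and 0.70 with median scaling. What part the brightness of that array has in it was not tested.

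GSTL1 (At5g02780) is the direct neighbour of GSTL3 on chromosome 5, with no protein-coding gene between them in TAIR10.1. The annotation used gives no gene for its probe set. GSTL1 was named through the list of changed genes of the study, which was chosen by fold on these same arrays. Its direction, size, interval, p and separation of the arrays are thus not independent evidence. Its signal was 253, 503 and 202 in the wild type and 146, 126 and 119 in frb1-1. Every mutant array was below every wild-type array, and wild-type replicate 2 stood well above the other wild-type arrays. The means were 320 ± 161 and 130 ± 13.8 (SD, n = 3 each), a ratio of wild type to mutant of 2.46, with a log2 difference of -1.19 (standard error 0.34, 95% interval -1.94 to -0.44). This did not pass the threshold either (unadjusted p = 0.00496, adjusted p = 0.358 from limma), with adjusted p from 0.0632 to 0.822 over 16 alternatives. The difference was -0.80 without wild-type replicate 2.

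The lambda neighbours thus had log2 differences of opposite sign. The difference of GSTL3 exceeded that of GSTL1 by 1.92 on the log2 scale. In the ratio of these genes every mutant array was above every wild-type array, which follows from the arrays of each gene alone. The comparison is a description with no test, since GSTL1 was named through a list chosen on these arrays. Both lie on the chromosome that carries FRB1, with 173 protein-coding genes between FRB1 and GSTL1 and 174 between FRB1 and GSTL3. Whether that position has a part in their signals was not tested.

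**Figure D2:**
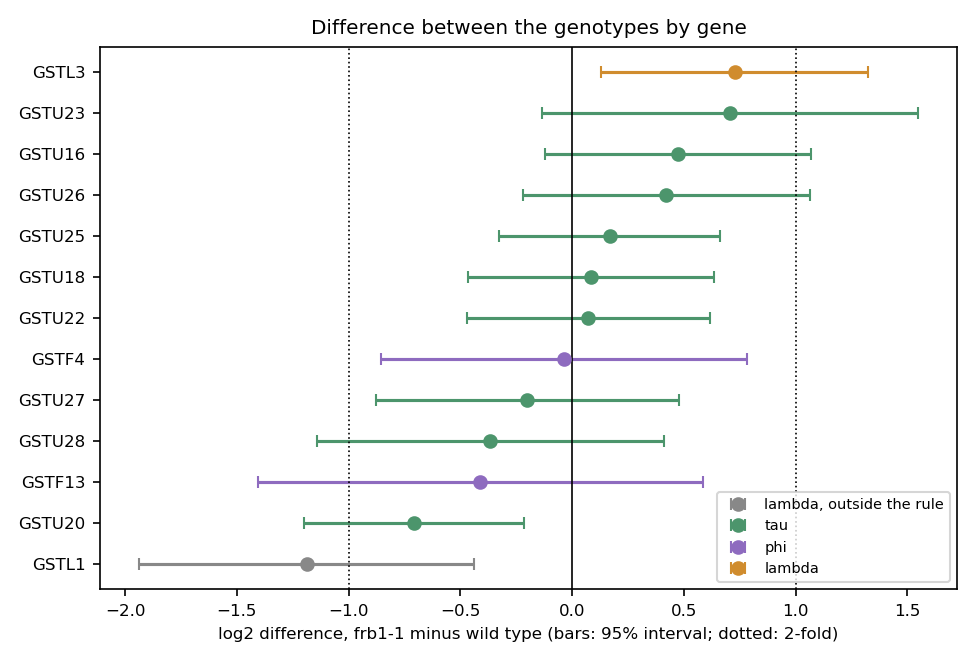
Log2 difference (frb1-1 minus wild type) with its 95% interval from limma for the 12 tested members and GSTL1, coloured by class, with a solid line at no difference and dotted lines at 2-fold. The intervals of GSTU20 and GSTL3 leave out 0 before adjustment over all probe sets, and those of GSTU18, GSTU22, GSTU25, GSTU27 and GSTF4 lie wholly between the 2-fold lines. That of GSTL1 leaves out 0 too, but GSTL1 was named through a list chosen by fold on these arrays, so that nothing is read from it.

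How far the data bound the members can be read from these intervals. For 5 of the 12 members (GSTU18, GSTU22, GSTU25, GSTU27 and GSTF4) the 95% interval lay wholly between -1 and 1 on the log2 scale, so that a change of 2-fold or more in either direction is outside it. This held for 68.8% of all tested probe sets. For the 7 others a 2-fold change in at least one direction lies within the interval, upward for GSTU16, GSTU23, GSTU26 and GSTL3 and downward for GSTU20, GSTU28 and GSTF13. The standard errors of the members ran from 0.22 to 0.46 on the log2 scale.

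**Figure D3:**
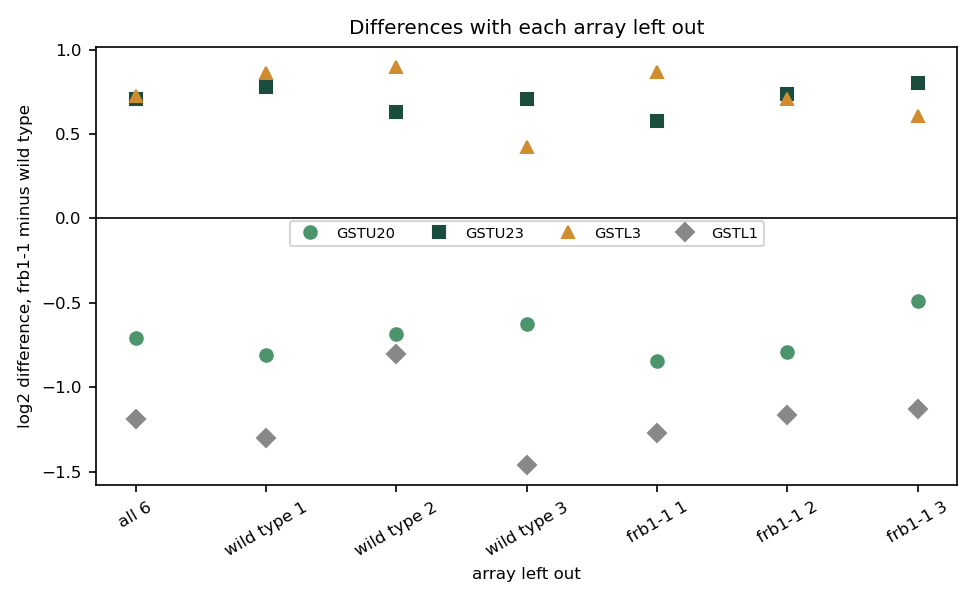
Log2 difference (frb1-1 minus wild type) of GSTU20, GSTU23, GSTL3 and GSTL1 with all 6 arrays and with each array left out in turn, by the array left out. GSTL3 is smallest without wild-type replicate 3 (0.42), GSTL1 without wild-type replicate 2 (-0.80) and GSTU20 without frb1-1 replicate 3 (-0.49), and the sign of each is kept.

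Over the members, frb1-1 replicate 3 was the lowest mutant array for 8 of the 12 and replicate 2 for 0 of the 12, and replicate 2 was the highest for 6. In the wild type, replicates 1 and 2 were each the lowest for 5 members and replicate 3 for 2. No wild-type array was thus low throughout the family.

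Among the genes that make, recycle and use glutathione, few have a probe set of their own in the annotation. Of 74 genes in 6 lists (synthesis and recycling, peroxidase-like enzymes, breakdown, transport, sulfate assimilation, and xenobiotic response) and a list of other GST-related genes, 10 are named and 9 were tested. Of these 9, 1 rose in frb1-1 (APS4) and 0 fell, at background rates of 0.276% and 0.092%, and their median log2 difference was -0.06. The lists were chosen with earlier results of these data known, and the study's own list of changed genes holds APS4. No excess over the background rates is therefore read from this count.

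APS4 (At5g43780) encodes an ATP sulfurylase, which activates sulfate as the first step towards cysteine and so towards glutathione. Its signal was 380, 535 and 473 on the wild-type arrays and 1351, 1336 and 1200 on the frb1-1 arrays. The mutant arrays were close to each other and all far above the wild type, with means of 463 ± 78.3 and 1296 ± 82.9 (SD, n = 3 each), a ratio of 2.80. The log2 difference was 1.50 (95% interval 1.03 to 1.97), with an adjusted p of 0.0111 from limma. It no longer passed when wild-type replicate 1 (adjusted p = 0.0667), frb1-1 replicate 1 (0.0947) or frb1-1 replicate 2 (0.0756) was left out, nor in a fit that gave all probe sets 1 prior variance (0.0529). Over all 16 alternatives the adjusted p ran from 0.00211 to 0.0947 and the log2 difference from 1.36 to 1.61. APS4 is in the list of changed genes of the study, which was chosen on these arrays, so that neither its direction nor its call is independent evidence.

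Of 22 genes listed for sulfate assimilation and cysteine synthesis only 3 were tested, and those other than APS4 had negative log2 differences. SIR, the sulfite reductase that acts further along the same pathway, had signals of 3352, 2960 and 2449 in the wild type and 2079, 2282 and 1661 in frb1-1. APS3, another ATP sulfurylase, had signals of 749, 689 and 714 in the wild type and 671, 522 and 597 in frb1-1. In both genes all mutant arrays were below all wild-type arrays, as in 4.65% of all tested probe sets. The log2 differences were -0.54 for SIR (standard error 0.21, adjusted p = 0.708 from limma) and -0.27 for APS3 (standard error 0.21). Neither passed the threshold.

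The glutathione reductases, which return oxidized glutathione to its reduced form, had log2 differences close to 0. GR1 (At3g24170) averaged 1773 ± 336 in wild-type and 1684 ± 202 in mutant seedlings (SD, n = 3 each), a log2 difference of -0.06 (95% interval -0.54 to 0.41). GR (At3g54660), the form of plastids and mitochondria, had 2005 ± 128 and 2024 ± 293 (SD, n = 3 each), a log2 difference of 0.01 (95% interval -0.43 to 0.44). At1g65820, of the list of other GST-related genes, had 3239 ± 230 and 3223 ± 629 (SD, n = 3 each). In each of these the arrays of the genotypes overlapped.

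At1g44790, of the list for glutathione breakdown, had signals of 453, 513 and 635 in the wild type and 356, 358 and 408 in frb1-1. All mutant arrays were lower, as in 4.65% of all tested probe sets, and the log2 difference of -0.50 (standard error 0.22, adjusted p = 0.827 from limma) did not pass the threshold. Of the xenobiotic response genes, AER, an alkenal reductase that removes reactive products of lipid oxidation, had signals of 779, 651 and 620 in the wild type and 1002, 1044 and 1136 in frb1-1. It was higher on every mutant array, as in 6.26% of all tested probe sets. The log2 difference of AER was 0.64 (standard error 0.20, adjusted p = 0.501 from limma), short of the threshold. UGT73B5, a glycosyltransferase of the same list, had means of 170 ± 48.5 and 118 ± 30.1 (SD, n = 3 each), with overlapping arrays.

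**Figure D4:**
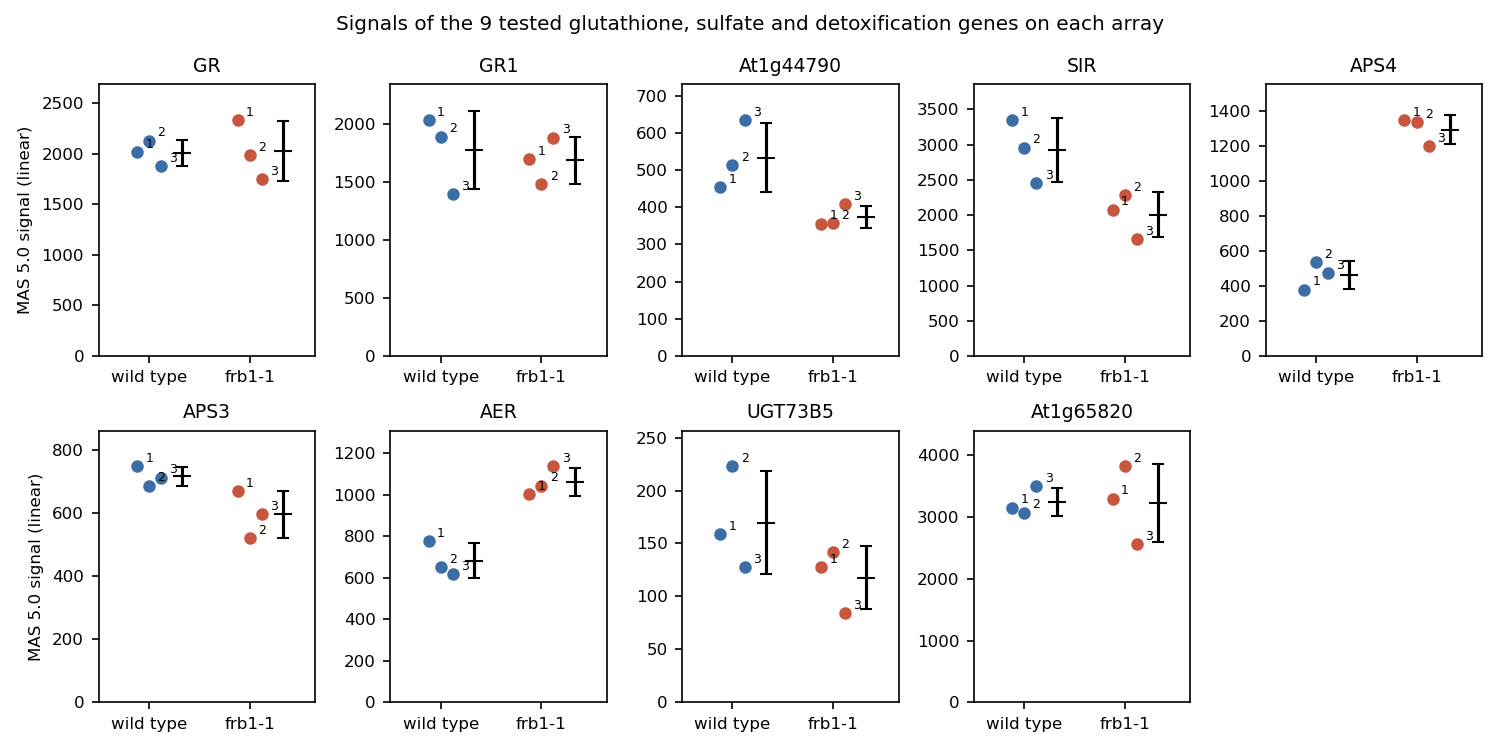
Signals of the 9 tested genes of glutathione metabolism, sulfate assimilation and xenobiotic response on each array, on a linear scale that starts at 0. Points are arrays, numbered by replicate, with the mean and SD of 3 arrays at the right of each group; APS4 is the gene that passed the threshold, with mutant arrays from 1200 to 1351 and wild-type arrays from 380 to 535.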

How the data were processed

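The deposited table gives probe set signal intensity on 6 ATH1 arrays, which the authors computed with MAS 5.0 (version not given in the sources used here) at a target of 500. The authors then dropped absent probe sets and used a fold rule; here all 22810 deposited probe sets were the start, without detection calls. After 64 control probe sets were left out, 15218 passed the minimum (average log2 signal 6 or more) and were fitted in R 4.3.3 by lmFit and, with trend, eBayes of limma 3.58.1, no pseudocount being added. The code of the fit was run on simulated signals with independent noise on each array. Deviations shared between arrays were not simulated, so that this run does not show how well the fit suits these arrays. Genes were named through the array annotation, and their order was taken from TAIR10.1, without coordinates, as no build is given for the probe sets.

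The rule named the members with the smallest p of each direction and class, lambda members, the brightest and dimmest members, GST genes named outside the annotation, and, of each pathway list, called genes and up to 3 by p; the remaining members were added after their values were seen. Members and lists were chosen with earlier results of these data known. The fit was repeated with quantile or median scaling, other minimum signals, 32 added to each signal, the replicate number as a block, no trend, array weights, and each array left out; a repeat without both arrays numbered 3 was chosen after seeing the data. Only 3 arrays per genotype limit the precision.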

Additional observations from a re-analysis of the deposited data

How the results depend on the processing

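In no alternative was a tested GST member called, and GSTU20, GSTU23, GSTL3, GSTU16, GSTU25, GSTU26, GSTU28, GSTF13 and GSTL1 kept their sign in each alternative in which they were tested. Their sizes moved with single arrays: with each left out in turn, GSTF13 was -0.82 to -0.094, GSTU28 was -0.63 to -0.055, GSTU26 was 0.13 to 0.72, GSTU16 was 0.26 to 0.64 and GSTU25 was 0.031 to 0.27. Log2 differences close to 0 turned. GSTF4 was 0.089 with array weights and 0.17 without both replicate-3 arrays, and GSTU22 was -0.066 and -0.11 in these settings. With each array left out in turn, GSTF4 was -0.24 to 0.14, GSTU22 was -0.079 to 0.26, GSTU18 was -0.13 to 0.34 and GSTU27 was -0.51 to 0.013. The lambda median, which is GSTL3 alone, was 0.30 without both replicate-3 arrays, where GSTU20 was -0.41 and the phi median 0.060. With no filter, GSTU21 counted as the 1 member lower by at least 2-fold. Its signals were below the minimum on all 6 arrays and the genotypes overlapped, so that no fold is read from it. The cause of these changes was not tested.

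Over all probe sets, 42 were called higher and 14 lower. With the replicate block these were 107 and 31, with array weights 98 and 24, with no mean-variance trend 19 and 9, and without both replicate-3 arrays 109 and 28. The lower count was 9 when the minimum was raised to 7 and 6 when every array had to pass it. With each array left out in turn the higher count was 11 to 66 and the lower 5 to 16. APS4, the only pathway gene called, was not called with no mean-variance trend (0 called), and with each array left out 0 or 1 pathway gene was called. Same-numbered arrays of the genotypes deviated together unevenly (correlations of 0.04, 0.28 and 0.32). Wild-type replicate 1 correlated best with frb1-1 replicate 2 (0.12). Wild-type replicates 2 and 3 correlated best with their own number. Wild-type replicate 2 had -0.30 with frb1-1 replicate 3, and wild-type replicate 3 had -0.31 with frb1-1 replicate 2. Deviations were taken from the mean of the arrays of a genotype, so that they cancel within it. These correlations are thus tied to each other and are not separate observations. The labels do not state that the numbers pair the samples, so that the main fit did not pair them. Whether same-numbered arrays belong together was not tested. The replicate block changed no call of a GST member. Each GST member has a single probe set in the annotation, so that there were none to average.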
